A study of Mus musculus with 22 samples.

Results

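The genes described here are 53 mouse genes of endoplasmic reticulum (ER) protein folding and secretion, chosen by name and sorted into 8 roles, from the chaperones of the ER lumen to the proteins that carry cargo to the Golgi apparatus. Counts were found for 52 of them among 33984 genes, and Spcs1 was not analysed here. They were measured by RNA sequencing in the choroid plexus (ChP), the secretory epithelium of the brain ventricles that makes cerebrospinal fluid, in mice in which the homeoprotein gene Otx2 was lowered. The study asked which genes of the adult ChP depend on OTX2.

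There were 14 pools of ChP in 7 groups of 2. In the conditional model (strain label S129), 3-month-old Otx2lox/lox mice received Cre-Tat, a cell-permeable recombinase, or vehicle by injection into the lateral ventricles (LV) only. ChP was taken 15 days later from the LV and from the fourth ventricle (4V). Every mouse of this model carries the floxed allele, controls included, and the study combined 5 mice in each Cre-Tat pool and 4 in each vehicle pool. In the constitutive model (strain label B6D2), 4V ChP came from 3-month-old mice labelled wildtype, Otx2+/- and Otx2+/AA. The study describes the Otx2+/- mice as Otx2+/GFP and gives 4 such mice and 5 wildtype littermates for the pooled tissue. The labels name the AA allele without describing it. The models were sequenced in separate runs, so that levels are compared only within a model. Pools are called A and B, after the letters of the labels in the conditional model and after their replicate numbers in the constitutive model. Values for the 2 pools of a group are always given in that order.

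Pool totals ranged from 22750019 to 50088408 counts. Of the 16 files of the conditional model, 14 are recorded under another pool than the library number in the file name gives, and files were joined by library number, which made both runs of each pool agree within sampling noise (chi-square per degree of freedom of 1.005 to 1.036, against 22.8 to 40.8 as recorded). The Otx2 transcript itself stood higher in the pools labelled as knockdown. It was at 377 and 459 CPM (counts per 1000000 counts) in vehicle LV and 1209 and 1002 in Cre-Tat LV, at 377 and 385 in vehicle 4V and 1175 and 1195 in Cre-Tat 4V. In the constitutive model it was at 371 and 314 in wildtype, 1062 and 913 in Otx2+/- and 349.9 and 366 in Otx2+/AA. The study had checked Cre-Tat tissue by qPCR for lowered Otx2 before pooling and measured Otx2 reads of both models on a single exon. The present counts cover the whole transcript and were not split by exon, so they do not check the labels, and the groups are named by their labels.

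Proteins bound for secretion enter the ER through the SEC61 channel while they are being made, lose their signal peptide to the signal peptidase, and fold with the help of chaperones such as BiP (the product of Hspa5) and of protein disulfide isomerases, many of which depend on calcium. Misfolded chains leave through ER-associated degradation, and folded cargo leaves in vesicles for the Golgi. When unfolded chains build up, the sensors IRE1, PERK and ATF6 switch on the unfolded protein response, whose factors raise many of these genes together. The ChP epithelium secretes large amounts of transthyretin and other proteins into the cerebrospinal fluid and relies on this machinery.

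Many genes of the unfolded protein response carry an ER stress response element (ERSE) in their promoter, and the letters searched here, on both strands, were CCAAT and CCACG with 9 free bases between them for ERSE, and ATTGG and CCACG with 1 free base between them for the related ERSE-II. In RefSeq promoters of GRCm38.p6, which run from 250 bases before to 50 after the start of a gene, ERSE was found in 10 of the 42 member genes with an entry (23.8%) and in 37 of 27025 genes in all (0.137%). ERSE-II was found in 2 members (4.76%) and in 12 genes (0.0444%). The 42 include Spcs3, a gene of chromosome 8, through the entry of another gene, Arxes2 on chromosome X, matched by a synonym. That entry held neither element. Each of the promoters of Hspa5, Calr, Canx, Dnajc3, Creld2, Pdia6, Ero1lb, Syvn1 and Derl3 held 1 ERSE, that of Hsp90b1 held 2, and Dnajb11 and Herpud1 held ERSE-II. A match is a description of the letters and not a measured binding site. The stretches below are shown as examples of both elements in genes whose pool values are described further on, with the fixed letters of the element in capitals, in the reading direction of the gene:
Hspa5: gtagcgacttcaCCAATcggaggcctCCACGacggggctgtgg
Hsp90b1: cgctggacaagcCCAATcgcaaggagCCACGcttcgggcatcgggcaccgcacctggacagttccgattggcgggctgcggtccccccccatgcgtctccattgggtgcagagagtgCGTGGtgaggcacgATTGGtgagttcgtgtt
Calr: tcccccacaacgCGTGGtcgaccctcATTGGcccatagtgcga
Pdia6: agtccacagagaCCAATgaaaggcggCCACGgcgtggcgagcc
Creld2: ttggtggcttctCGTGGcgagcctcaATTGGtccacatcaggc
Herpud1: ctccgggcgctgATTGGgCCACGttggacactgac
Dnajb11: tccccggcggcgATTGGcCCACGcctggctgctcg
These lie in GRCm38.p6 at chr2:34772013-34772055 (plus strand, Hspa5), chr10:86705521-86705668 (minus strand, Hsp90b1), chr8:84847063-84847105 (minus strand, Calr), chr12:17266479-17266521 (plus strand, Pdia6), chr15:88819508-88819550 (plus strand, Creld2), chr8:94386365-94386399 (plus strand, Herpud1) and chr16:22857840-22857874 (plus strand, Dnajb11), the last reaching into the transcribed part. On the complementary strand the element reads as CGTGG followed by ATTGG, as in Calr, Creld2 and the second element of Hsp90b1. The letters TGACGTGG, bound by XBP1, were in no member promoter and in 193 genes (0.714%). The letters TAATCC, the core recognised by OTX proteins, were in 1 member promoter, that of Rcn3 (2.38%), against 8.14% of all genes.

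Levels per kilobase of transcript set the members far apart. Hspa5, the BiP chaperone, stood highest with a mean over the 7 groups of 789 CPM per kb, and Derl3, a degradation factor, stood lowest at 0.745 CPM per kb. The highest member of each other role was Pdia4 for the disulfide bond enzymes (272 CPM per kb), Srp14 for translocation (126), Mcfd2 for ER-to-Golgi cargo (102), Xbp1 for the sensors and factors (78.7), Herpud1 for degradation (57.5), Rcn2 for the calcium-binding proteins (56.7) and Spcs2 for the signal peptidase (20.4). As a share of the gene counts, the 52 members made up 0.834% to 1.02% in the pools of the conditional model and 1.21% to 1.71% in those of the constitutive model.

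**Figure D1:**
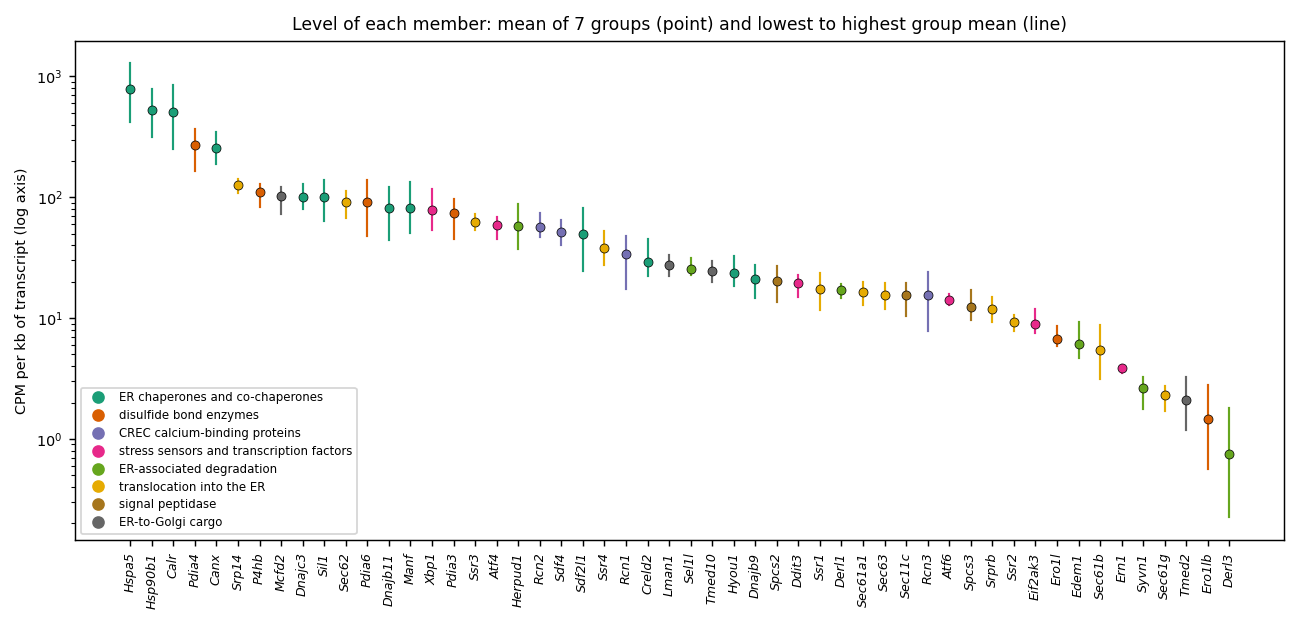
Level of each of the 52 members in CPM per kb of the counted transcript (log axis), with the mean of the 7 group means as a point and the range from the lowest to the highest group mean as a line; colours give the role. The chaperones Hspa5, Hsp90b1 and Calr stand highest and Derl3 lowest, and since the 2 runs were scaled separately a line also holds the difference between models.

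In 4V ChP of the conditional model, 10 members were lower and 1 was higher in the pools labelled Cre-Tat than in vehicle, out of 51 tested (edgeR's quasi-likelihood test, Benjamini-Hochberg adjusted over all genes, threshold 0.05). Over all 14550 genes tested, 10.7% were called, 5.7% higher and 4.98% lower. The genes that fell came from 5 roles, being 5 of 12 chaperones, 2 of 6 disulfide bond enzymes, 1 of 4 calcium-binding proteins, 1 of 11 translocation genes and 1 of 3 signal peptidase genes. No gene of the sensors and factors, of degradation or of ER-to-Golgi cargo was called. In edgeR, 5 members of these roles had an unadjusted p under 0.05, as had 3234 of all 14550 genes. The median log2 fold change was −0.26 over the members and 0.01 over all genes, and 43 of 51 members had a value below 0, against 49.3% of all genes. DESeq2's Wald test gave 12 members, 11 lower and 1 higher.

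All 12 chaperones had log2 fold changes below 0, with a median of −0.45, and in all 12 both Cre-Tat pools lay under both vehicle pools, as they did in 33 of the 51 members and in 25.4% of all genes. Hspa5 encodes BiP, the HSP70 chaperone of the ER lumen, and stood at 1763 and 1428 CPM in vehicle 4V and 1087 and 1093 in Cre-Tat 4V. Its Cre-Tat pools lay close together and well under the lower vehicle pool, with a log2 fold change of -0.54 ± 0.17 (SE, adjusted p = 0.0428). Calr, calreticulin, a calcium-binding chaperone of glycoproteins, stood at 1035 and 704 CPM and 562 and 535, so that the vehicle pools were further from each other than vehicle pool B was from the Cre-Tat pools. Its log2 fold change was -0.66 ± 0.18 (SE, adjusted p = 0.0212).

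Of the genes that work with BiP, Dnajb11, Sdf2l1 and Sil1 fell. Dnajb11 (ERdj3), a J-domain partner of BiP, was at 144 and 115 CPM in vehicle 4V and 86.4 and 83.3 in Cre-Tat 4V, a log2 fold change of -0.61 ± 0.14 (SE, adjusted p = 0.00948). Sdf2l1, which works in a complex with ERdj3, was at 52.9 and 33.1 and 28.7 and 25.8, with a log2 fold change of -0.66 ± 0.18 (SE, adjusted p = 0.0251). Sil1, the nucleotide exchange factor of BiP, was at 197 and 136 and 119 and 97.7, with a log2 fold change of -0.61 ± 0.17 (SE, adjusted p = 0.0245). In all of them vehicle pool A was the higher of the vehicle pools, and no Cre-Tat pool reached vehicle pool B. The other chaperones did not pass the threshold. Hsp90b1 (GRP94), the HSP90 of the ER, was at 1246 and 1121 CPM and 848 and 943, with a log2 fold change of -0.40 ± 0.16 (SE, adjusted p = 0.128), and log2 fold changes of Dnajb9, Manf, Hyou1, Canx, Creld2 and Dnajc3 lay between -0.47 and -0.06.

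**Figure D2:**
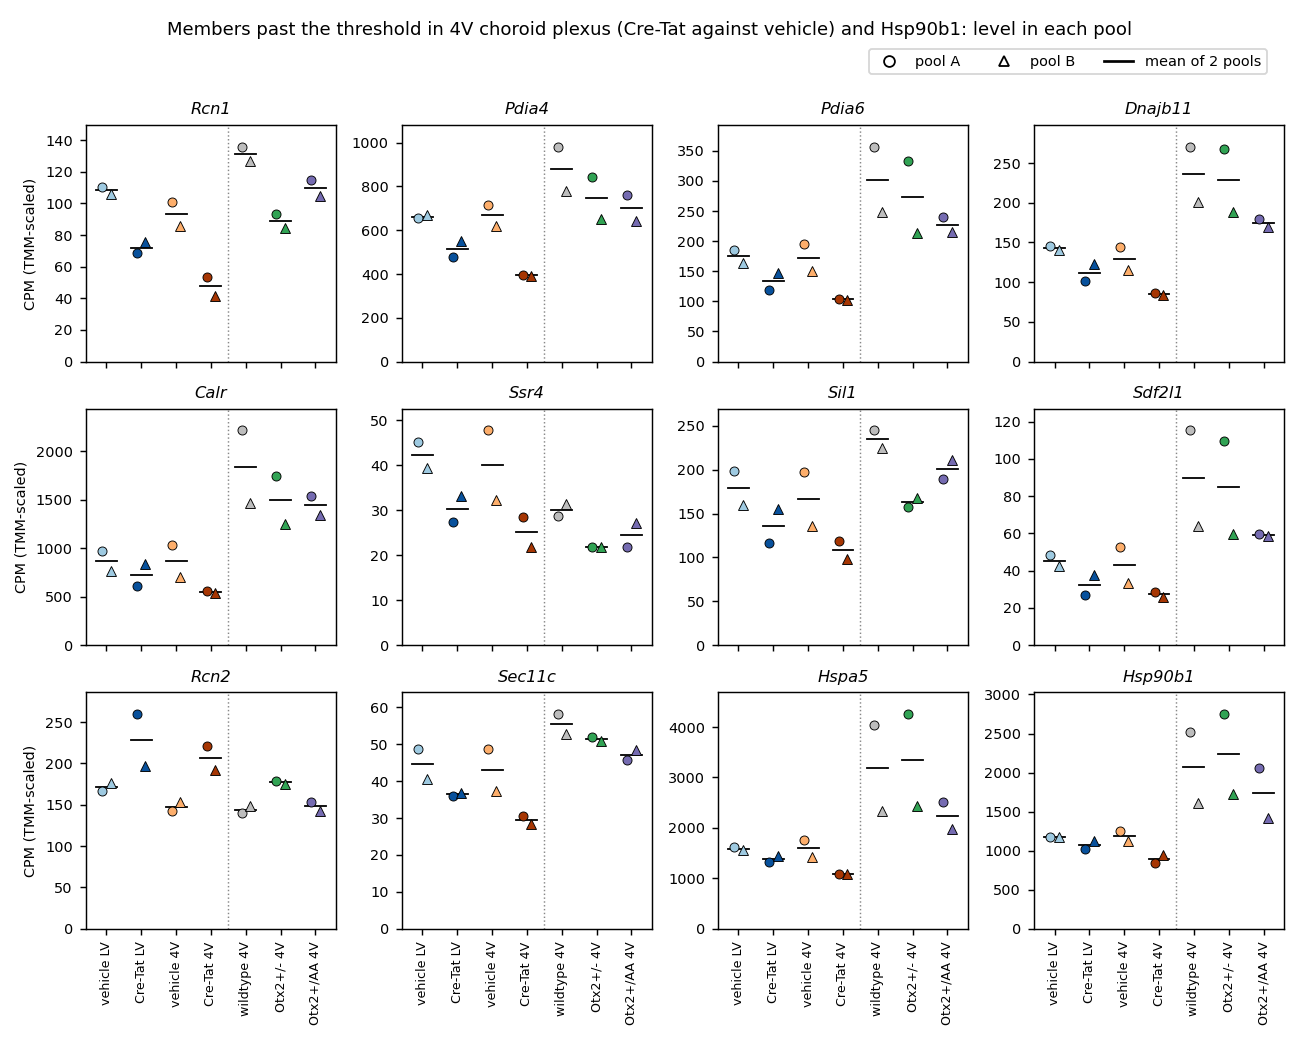
TMM-scaled CPM in each pool (pool A as a circle, pool B as a triangle, mean of the 2 as a bar) for the 11 members past an adjusted p of 0.05 between Cre-Tat and vehicle in 4V ChP, and for Hsp90b1; the dotted line separates the runs, which were scaled separately. Rcn1 fell from 101 and 85.4 to 53.5 and 41.7 CPM in 4V, Rcn2 is the 1 gene that rose, and pool A of wildtype and of Otx2+/- stands high for Hspa5, Hsp90b1 and Sdf2l1.

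Among the disulfide bond enzymes, Pdia4 (ERp72) was at 717 and 620.0 CPM in vehicle 4V and 394 and 393 in Cre-Tat 4V, which gave a log2 fold change of -0.76 ± 0.15 (SE, adjusted p = 0.00245). Pdia6 (P5), another isomerase, was at 195 and 151 and 104 and 103, a log2 fold change of -0.73 ± 0.15 (SE, adjusted p = 0.00288). For both, the 2 Cre-Tat pools almost coincided. Pdia3 (ERp57), the partner of calnexin and calreticulin, and P4hb, the founding isomerase of the family, had log2 fold changes of -0.43 and -0.39 (adjusted p = 0.0736 and 0.118). The oxidases that recharge these enzymes, Ero1l and Ero1lb, had log2 fold changes of 0.06 and -0.54 (adjusted p = 0.872 and 0.298).

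The CREC proteins, calcium binders of the secretory pathway, held the 2 opposite calls. Rcn1 (reticulocalbin 1; chromosome 2, 105386291 to 105399319, minus strand) had the smallest adjusted p of all members, at 101 and 85.4 CPM in vehicle 4V and 53.5 and 41.7 in Cre-Tat 4V, with a log2 fold change of -0.96 ± 0.15 (SE, adjusted p = 0.000365). Rcn2 (reticulocalbin 2; chromosome 9, 56041845 to 56061882, plus strand) moved the other way, from 143 and 153 to 221 and 192, with a log2 fold change of 0.49 ± 0.14 (SE, adjusted p = 0.0282). The transcript that carried most Rcn2 counts is annotated as a target of nonsense-mediated decay, and the counts of all Rcn2 transcripts together gave no call. Rcn3 and Sdf4 had log2 fold changes of -0.50 and -0.18 (adjusted p = 0.0957 and 0.546).

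Of the genes of entry into the ER, Ssr4, a subunit of the translocon-associated protein complex, was at 47.7 and 32.3 CPM in vehicle 4V and 28.4 and 21.8 in Cre-Tat 4V, a log2 fold change of -0.67 ± 0.18 (SE, adjusted p = 0.0232). The other subunits of that complex, Ssr1, Ssr2 and Ssr3, had log2 fold changes of -0.23, -0.12 and 0.057 and were not called. Sec11c, a catalytic subunit of the signal peptidase, was at 48.6 and 37.2 and 30.7 and 28.5, with a log2 fold change of -0.54 ± 0.15 (SE, adjusted p = 0.0304), counted on a transcript annotated with a retained intron. Srp14, a protein of the signal recognition particle, was at 94.4 and 90.2 CPM and 94.9 and 76.5, with overlapping pools, and Mcfd2, a cofactor of the cargo receptor LMAN1, was at 217 and 179 and 156 and 137 (log2 fold change -0.43, adjusted p = 0.0669). The 6 cargo, translocation and peptidase genes with a log2 fold change closest to 0 (Ssr3, Tmed10, Tmed2, Spcs2, Srp14 and Ssr2) lay between -0.12 and 0.057. Values below 0 were found in 10 of 11 translocation, 4 of 4 cargo and 3 of 3 peptidase genes, against 49.3% of all genes. The medians of these roles were −0.26, −0.18 and −0.24.

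The sensors and factors of the unfolded protein response gave no call in 4V ChP and no common direction. Xbp1, the factor spliced by IRE1, was at 162 and 143 CPM in vehicle 4V and 118 and 109 in Cre-Tat 4V, with a log2 fold change of -0.42 ± 0.14 (SE, adjusted p = 0.0557). Atf4, the factor translated after PERK activation, was at 77.4 and 78.7 and 108 and 99.0, with a log2 fold change of 0.41 ± 0.13 (SE, adjusted p = 0.0551). In both genes the pools of the 2 groups did not overlap, Xbp1 being lower and Atf4 higher with Cre-Tat. Ddit3 (CHOP), the pro-apoptotic factor, was at 17.4 and 19.7 and 17.2 and 15.1, and Eif2ak3 (PERK) at 38.1 and 34.0 and 41.2 and 44.7. Ern1 (IRE1) was at 25.7 and 31.1 and 24.2 and 27.8, and Atf6 at 94.7 and 92.7 and 87.4 and 106, both with overlapping pools. The 5 degradation genes tested, Herpud1, Sel1l, Syvn1, Edem1 and Derl1, had log2 fold changes from -0.31 to 0.16.

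Most of the 4V calls were lost without vehicle pool A, in a fit with a lone vehicle pool, while the direction was kept. The median log2 fold change of the members was then −0.23, against −0.26 with all pools, and 12 of 52 had a value above 0. Rcn1, Pdia4 and Pdia6 stood at −0.83, −0.64 and −0.52. With library sizes set by total counts, which moved the median of all genes to 0.15, 6 members were lower and 2 higher, and 19 of 51 had a value above 0 against 8 with TMM. Summed transcripts and a fit of all groups of the run each gave 6 members. With the files as recorded, a join under which the runs of a pool disagreed, the direction turned, with Rcn1, Pdia4 and Hspa5 at 0.66, 0.36 and 0.31.

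In LV ChP, 0 of 51 members were called with edgeR, while 13 had an unadjusted p under 0.05 and DESeq2 called 1, Rcn1. Over all 15002 genes tested, 3.24% were called and 2126 had an unadjusted p under 0.05 in edgeR. The median log2 fold change was −0.24 over the members and 0.00 over all genes, and in 33 members both Cre-Tat pools lay under both vehicle pools, against 20.5% of all genes. Rcn1 was at 111 and 106 CPM in vehicle LV and 68.4 and 75.5 in Cre-Tat LV, without overlap, a log2 fold change of -0.59 ± 0.16 (SE, adjusted p = 0.0600). Sdf2l1 was at 48.2 and 42.4 and 26.9 and 37.8, and Hspa5 at 1612 and 1559 and 1325 and 1443, with log2 fold changes of -0.48 and -0.19 (adjusted p = 0.217 and 0.700). Calr was at 973 and 763 and 613 and 837, and its Cre-Tat pool B lay above vehicle pool B.

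Cre-Tat pool A was the lower Cre-Tat pool in LV for Calr, Sil1, Sdf2l1, Pdia4, Pdia6 and Rcn1, as in 117 and 156 CPM for Sil1 and 477 and 551 for Pdia4. Without Cre-Tat LV pool B, the median log2 fold change of the members was −0.21, against −0.24 with all pools. Xbp1 was at 155 and 155 in vehicle LV and 109 and 126 in Cre-Tat LV (log2 fold change -0.39, adjusted p = 0.256), and Ddit3 at 12.7 and 14.2 and 15.6 and 19.8 (log2 fold change 0.40, adjusted p = 0.337). Rcn2 was again on the other side, at 167 and 176 and 259.9 and 197 (log2 fold change 0.42, adjusted p = 0.268).

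LV and 4V ChP came from mice of the same injections, so that their pools can hold tissue of the same animals, which the tests between ventricles do not take into account. Of the 51 members tested in both, 38 had a log2 fold change below 0 in both ventricles (74.5%), 4 above 0 in both and 9 on opposite sides, whereas 35.9% of 14284 genes were below 0 in both. The difference between the ventricles was tested as an interaction, and 0 of 52 members were called with edgeR or with DESeq2, where 2 had an unadjusted p under 0.05 in edgeR (Ddit3 and Rcn3, named after their values were seen). Over all 15565 genes, 0.00642% were called in that test and 416 had an unadjusted p under 0.05 in edgeR. A larger effect in 4V than in LV was thus not shown for any member.

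**Figure D3:**
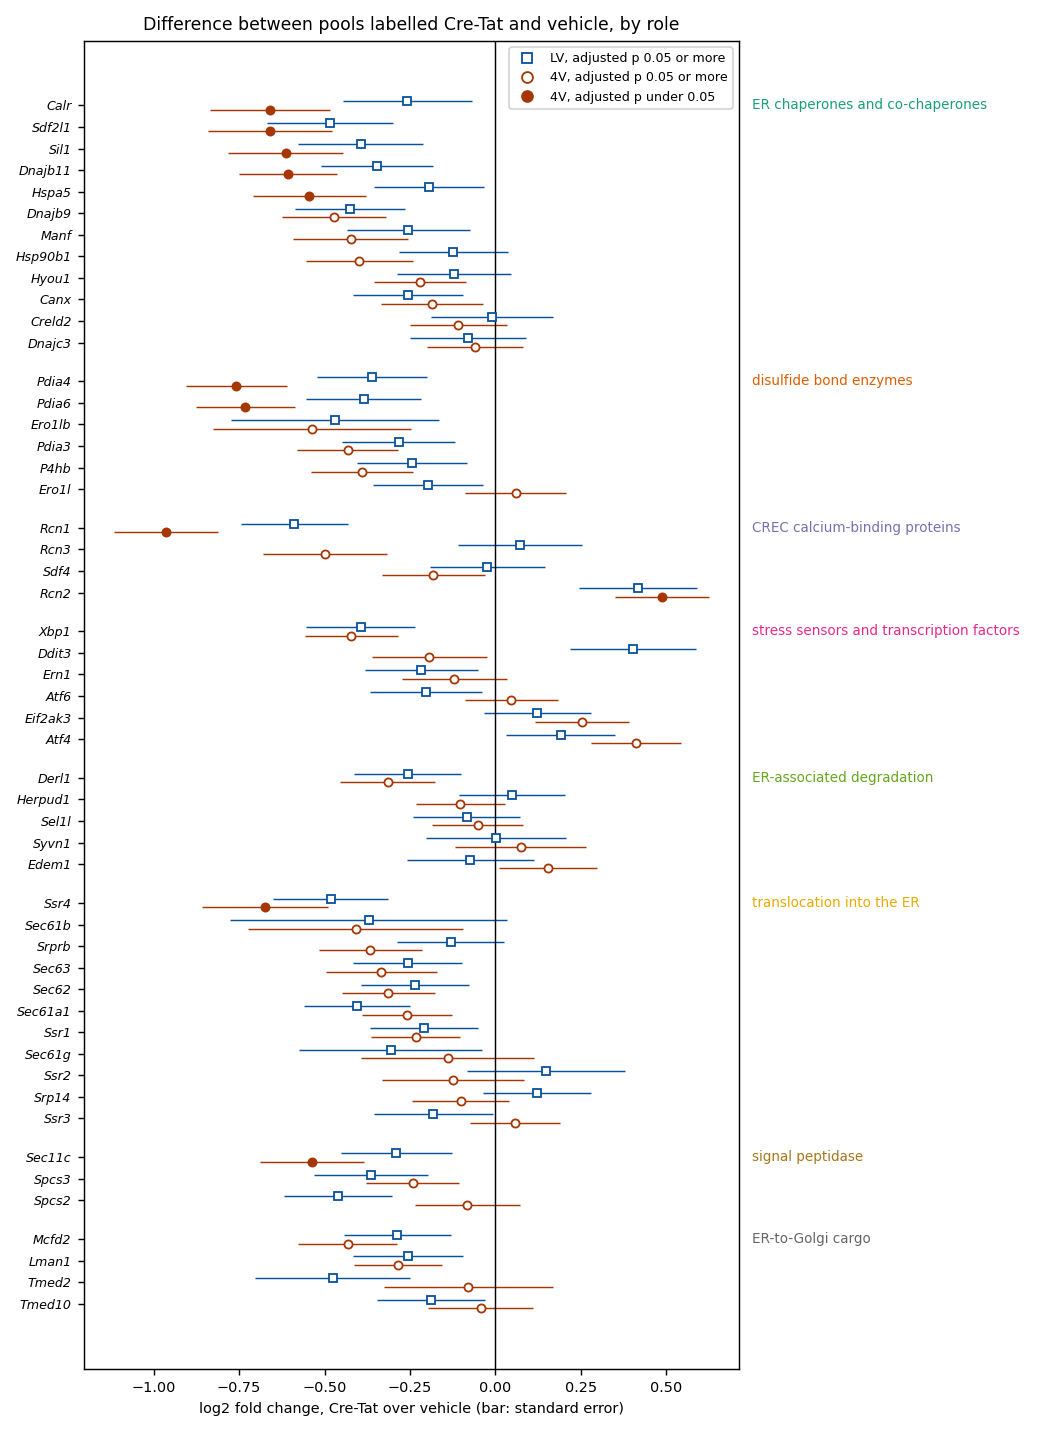
log2 fold change of Cre-Tat over vehicle for the 51 members tested in LV (squares) and 4V (circles), with the standard error as a bar, sorted by role; filled circles are past an adjusted p of 0.05, and no LV value is. All 12 chaperones lie below 0 in both ventricles, Rcn1 is the lowest point of both, and Rcn2 lies above 0 in both.

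Summed markers of several cell types also differed between the same labels. In these bulk samples, fewer cells of a type and less RNA per cell cannot be told apart. The 10 epithelial markers, Ttr among them, summed to 213382 and 180791 CPM in vehicle 4V and 96557 and 85618 in Cre-Tat 4V, and to 217030.3 and 226330.5 in vehicle LV and 121335 and 161566 in Cre-Tat LV, with 9 of 10 called lower in 4V and 4 of 10 in LV and Otx2 higher in both. Ttr, which the study calls a known direct target of OTX2, alone was at 164479 and 135715 CPM in vehicle 4V. In Cre-Tat 4V it was at 72175 and 59724. The 8 macrophage markers summed to 51.5 and 51.1 CPM and 122 and 86.9 in 4V and to 62.5 and 71.6 and 128 and 103 in LV. Markers of plasma cells and B cells, which are rich in ER, summed to 11.5 and 13.1 CPM and 91.9 and 24.4 in 4V, with Cd79a at 0 in vehicle 4V, and to 18.4 and 27.2 and 241 and 42.6 in LV. The 5 ependymal markers summed to 161 and 130.4 and 254 and 254 in 4V, the 7 fibroblast markers to 485 and 506 and 477 and 430.4. The fibroblast sum holds opposite calls, of 6 markers tested. Col1a2 was higher (log2 fold change 1.57) and Pdgfra lower (−1.33). In 4V the 6 endothelial markers summed to 96.3 and 110 and 97.4 and 116. Those of neurons and glia, 7 genes, summed to 137 and 119 and 94.2 and 96.3. Of 5 tested, Syt1 and Aldh1l1 were called lower (−0.77 and −0.62) and Gfap higher (0.87). The part of these differences in the values of the members was not tested.

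Another 166 genes were read in 9 lists. These hold other genes of the secretory pathway, stress transducers, targets of ATF4 and the integrated stress response, and chaperones of the cytosol and mitochondria. They gave 16 lower and 4 higher calls of 162 tested in 4V, where 10.7% of all genes were called. All 4 higher calls came from the ATF4 target list and the list of cytosolic and mitochondrial chaperones. The list of other ER folding enzymes held 8 of the lower calls, of 26 tested, with a median log2 fold change of −0.33, and its smallest adjusted p-values belonged to Tmx1, Fkbp9, Fkbp10 and Erp29 (log2 fold changes of −0.72, −0.73, −0.998 and −0.65). Tmx1 is a membrane disulfide isomerase and Fkbp9 and Fkbp10 are prolyl isomerases of the ER. Of the chaperones of the cytosol and mitochondria, 3 of 18 were higher (Dnajb1, Bag3 and Hspa9 at 0.60, 0.57 and 0.46) and 0 lower, where 5.7% of all genes were higher, and the median log2 fold change of the list was 0.15. Of 18 targets of ATF4 and the integrated stress response, Ddit4 was higher (1.08) and Slc7a5 lower (−0.61), and the lists of other stress transducers and of other translocation and signal peptidase genes held 0 calls. In LV, 1 of 164 was called, the KDEL receptor gene Kdelr3 (−1.12), where 3.24% of all genes were called.

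In the constitutive model, 2 of 52 members were lower in Otx2+/- than in wildtype and 0 higher. Over all 14573 genes tested, 3.53% were called. An unadjusted p under 0.05 in edgeR was found for 7 members and for 2700 of the 14573 genes. Rcn1 was at 136 and 127 CPM in wildtype and 93.4 and 84.6 in Otx2+/-, with a log2 fold change of -0.56 ± 0.12 (SE, adjusted p = 0.0364). Sil1 was at 245 and 225 and 158 and 168, with a log2 fold change of -0.53 ± 0.12 (SE, adjusted p = 0.0443). In both genes the pools of a group were close together and the groups lay apart. The median log2 fold change over the members was 0.00, as it was over all genes, but it moved to −0.23 without Otx2+/- pool A, 0.16 without Otx2+/- pool B, 0.19 without wildtype pool A and −0.21 without wildtype pool B. Rcn2 was at 140.5 and 148 and 179 and 175 (log2 fold change 0.30, adjusted p = 0.197), and Ssr4 at 28.7 and 31.3 and 21.9 and 21.8 (-0.46, adjusted p = 0.102). Pdia4 was at 981 and 779.6 and 841 and 652, and Pdia6 at 357 and 248 and 333 and 213, with overlapping pools.

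Results of this comparison depended on single pools. Without wildtype pool A, in a fit with a lone wildtype pool, the median of the members was 0.19. Rcn1 and Sil1 then stood at −0.51 and −0.46 and were no longer called. With counts summed over transcripts neither was called (adjusted p = 0.0583 and 0.0630), nor was Rcn1 without Otx2+/- pool B (0.0628) or Sil1 without Otx2+/- pool A (0.104). The epithelial markers summed to 204307 and 195075 CPM in wildtype and 129311 and 136788 in Otx2+/-, with 3 of 10 called lower, and the fibroblast markers to 819 and 752 and 1146 and 1036, with 2 of 6 tested called higher. Their part in the values of the members was not tested. The other genes of the secretory pathway gave 6 lower and 0 higher calls of 162, 3 of them among the other ER folding enzymes (Fkbp10, Fkbp2 and Erp29 at −0.99, −0.62 and −0.56).

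The knockdown labels of the conditional and constitutive models were compared in 4V by an interaction over 8 pools. With edgeR 0 of 52 members were called, with DESeq2 also 0, and 7 members had an unadjusted p under 0.05 in edgeR. The median interaction (log2, conditional minus constitutive) was −0.28 over the members and 0.01 over all genes. A value above 0 was found in 6 of 52 members, against 50.7% of all genes. With 1 pool left out in turn, the median of the members ran from −0.44 to −0.06. Over all 15327 genes, 1.64% were called and 1987 had an unadjusted p under 0.05 in edgeR. For Hspa5 the interaction was -0.63 ± 0.37 (log2, conditional minus constitutive, adjusted p = 0.513) and for Pdia4 -0.53 ± 0.23 (adjusted p = 0.336). Model, strain, onset of the Otx2 change and sequencing run cannot be told apart here.

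Otx2+/AA differed from wildtype in 1 of 52 members, Pdia3, which was lower, where 0.345% of 14494 genes were called. An unadjusted p under 0.05 in edgeR was found for 15 members and for 1292 of the 14494 genes. Pdia3 (chromosome 2, 121413775 to 121438687, plus strand) was at 215 and 216 CPM in wildtype and 112 and 138 in Otx2+/AA, a log2 fold change of -0.79 ± 0.14 (SE, adjusted p = 0.0344). Its level in Otx2+/- was 213 and 132, so that the pools of that group were far apart. The median over the members was −0.22, and 43 of 52 values lay below 0, against 50.8% of all genes. Without wildtype pool A, the median was −0.0912 and 15 values lay above 0. Without Otx2+/AA pool A the median was −0.24 and the Pdia3 call was lost, and without wildtype pool B the median was −0.32. The Pdia3 call was also lost with total counts, summed transcripts or all groups of the run in 1 fit (adjusted p = 0.0952, 0.0927 and 0.202).

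Otx2+/- and Otx2+/AA differed in 1 of 52 members, Herpud1, where 2.7% of 14578 genes were called. An unadjusted p under 0.05 in edgeR was found for 16 members and for 2092 of the 14578 genes. Herpud1, a membrane protein of ER-associated degradation (chromosome 8, 94386438 to 94395377, plus strand), was at 238 and 108 CPM in Otx2+/- and 65.3 and 79.2 in Otx2+/AA, a log2 fold change of 1.26 ± 0.27 (SE, adjusted p = 0.0297). The pools did not overlap, yet those of Otx2+/- were further from each other than pool B was from Otx2+/AA. The call was lost with DESeq2, summed transcripts, all groups of the run in 1 fit and the replicate block (adjusted p = 0.356, 0.0757, 0.140 and 0.0637). The median log2 fold change of the members was 0.23 with all pools. It was 0.03 without Otx2+/- pool A, where the Herpud1 call was lost, and 0.37 without Otx2+/- pool B. Without pool A or pool B of Otx2+/AA it was 0.26 and 0.18. Comparisons of the constitutive model share pools, so their values are not independent of each other.

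In wildtype and in Otx2+/-, members stood higher in pool A than in pool B more often than genes at large. For the 51 members with at least 10 counts in every pool, the ratio of pool A to pool B was above 0.5 on the log2 scale in 18 (35.3%) in wildtype and in 18 in Otx2+/-, against 5.09% and 4.26% of 12610 genes. In Otx2+/AA it was in 2 members (3.92%, against 3.98%), in vehicle 4V in 6 (11.8%, against 5.04%), in Cre-Tat 4V in 1 (1.96%, against 4.85%), in vehicle LV in 0 (against 6.09%) and in Cre-Tat LV in 0 (against 6.47%). A ratio below −0.5 was found in 1 member in wildtype, 3 in Otx2+/AA, 1 in Cre-Tat 4V, 2 in Cre-Tat LV and 0 in the other groups, and in 508 to 1064 of the 12610 genes. The chaperones held 8 of the 18 in each of wildtype and Otx2+/-, of 12 measured, and degradation held 4 of 5 in each.

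Manf, a secreted factor released by ER stress, was at 419 and 177 CPM in wildtype, 394 and 204 in Otx2+/- and 165 and 171 in Otx2+/AA. Creld2, another protein induced by ER stress, was at 84.7 and 38.6, 83.7 and 40.4 and 29.4 and 33.5. Herpud1 was at 192 and 86.1 in wildtype, and Hspa5 at 4039.5 and 2329.7, 4261 and 2434 and 2505 and 1976 in the 3 groups. In all 4 genes, pool A of wildtype and of Otx2+/- stood high, and their pools B were closer to both Otx2+/AA pools than to pool A of their own group.

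Hyou1, the large HSP70-like chaperone of the ER, followed the same order at 167 and 102, 182 and 109 and 95.1 and 96.2 CPM, and Sdf2l1 stood at 115 and 64.0, 109.7 and 59.5 and 59.7 and 58.8. Xbp1 was at 295 and 169, 295 and 199 and 148 and 166, and Ddit3 at 23.6 and 13.3, 23.8 and 16.7 and 16.6 and 17.0. The pattern was not shared by every member of the response. Atf4 was at 113 and 118, 116 and 119 and 119.5 and 119 CPM, Atf6 at 104 and 108, 124 and 102 and 92.3 and 104, and Ern1 at 26.7 and 25.2, 30.3 and 25.6 and 26.6 and 28.4. Eif2ak3 was at 40.8 and 34.8, 61.3 and 46.7 and 41.6 and 38.8. Rcn1, Rcn2 and Sil1 had pools within a group that lay close together, as given above.

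**Figure D4:**
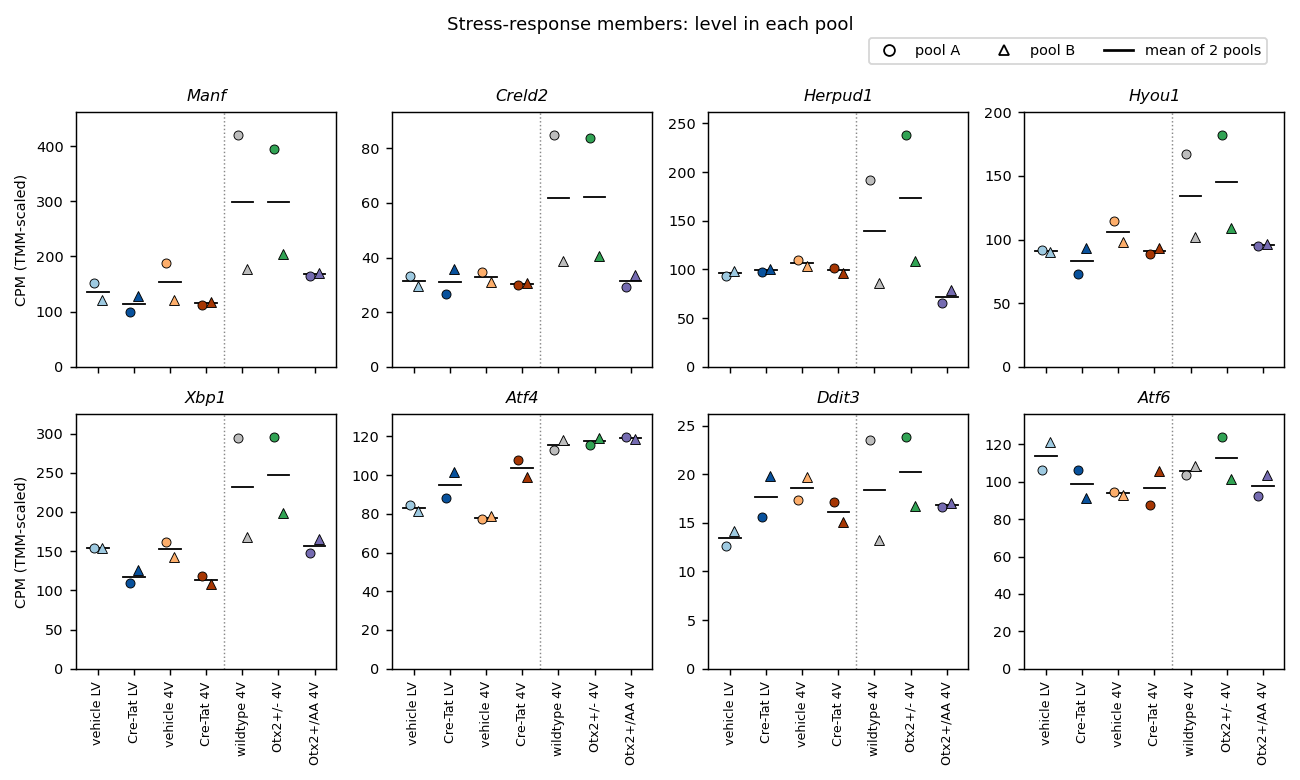
TMM-scaled CPM in each pool (pool A as a circle, pool B as a triangle, mean of the 2 as a bar) for 8 stress-response members in the 7 groups; the dotted line separates the runs, which were scaled separately. Pool A of wildtype and of Otx2+/- stands above every other pool of its run for Manf, Creld2, Herpud1, Hyou1, Xbp1 and Ddit3, while Atf4 is level across the constitutive groups.

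Of the members with an ERSE or ERSE-II, 11 had at least 10 counts in every pool. Over these 11, the median log2 ratio of pool A to pool B was 0.62 in wildtype and 0.64 in Otx2+/-, with all 11 above 0 and 8 above 0.5 in each. Over the 29 members with a promoter entry and no such element the medians were 0.12 and 0.25, with 21 and 24 above 0 and 7 and 8 above 0.5. These 29 include Spcs3, placed there by the entry of Arxes2. In Otx2+/AA the medians were 0.20 with an element and 0.02 without. In Cre-Tat against vehicle, the median log2 fold change with an element was −0.40 in 4V and −0.19 in LV, and without one −0.23 and −0.22. These medians are descriptions, and no test of the difference was made.

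**Figure D5:**
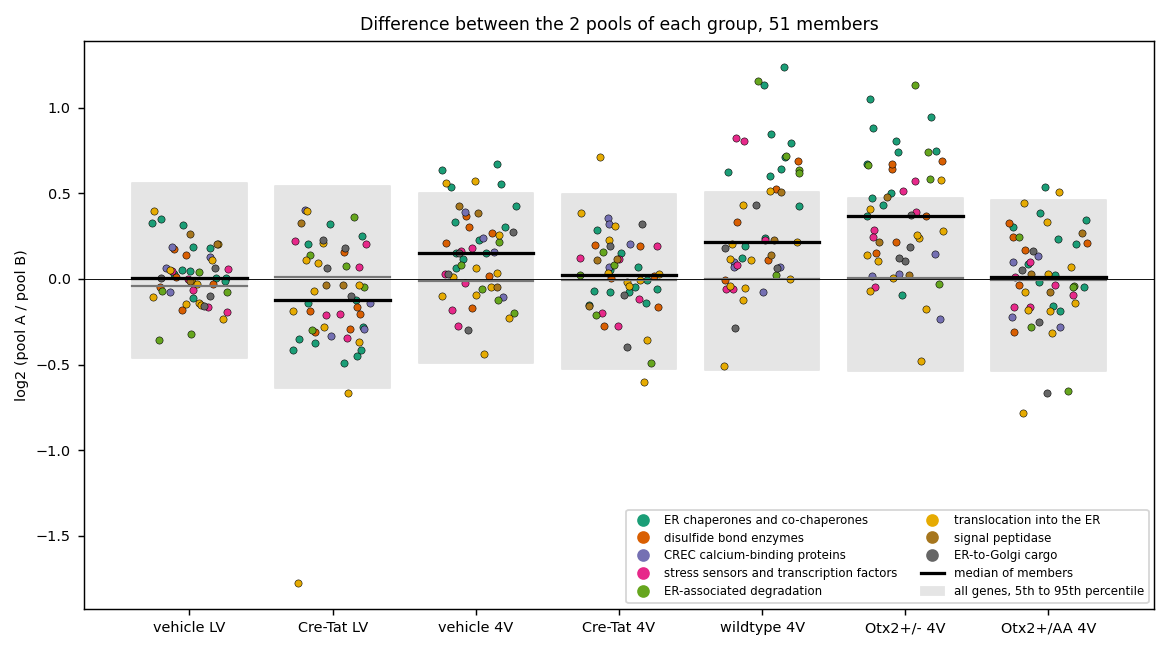
log2 ratio of pool A to pool B of each group for the 51 members with at least 10 counts in every pool (points, coloured by role), with the median of the members (black), the median of all genes (grey line) and the 5th to 95th percentile of all genes (grey band). In wildtype and Otx2+/- chaperones and degradation genes rise above the band, and the medians of the members are 0.22 and 0.37 against 0.00 and 0.01 for all genes.

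Depth and tissue markers are given beside this gap. Pools A and B held 42127712 and 36934922 counts in wildtype, 42182219 and 39284819 in Otx2+/-, and 43790479 and 38183169 in Otx2+/AA. The sums of the epithelial markers, given above for wildtype and Otx2+/-, were 159025 and 161468 CPM in Otx2+/AA, and those of plasma cells and B cells were 15.2 and 14.4 in wildtype, 12.6 and 14.2 in Otx2+/- and 13.1 and 17.1 in Otx2+/AA. Over all 7 marker lists, the ratio of the sum in pool A to that in pool B ran from 0.887 to 1.09 in wildtype, from 0.778 (neurons and glia) to 1.11 in Otx2+/- and from 0.766 (plasma cells and B cells) to 1.02 in Otx2+/AA. For the summed chaperones among the members it was 1.52, 1.55 and 1.25. The part of pool makeup, handling and library in this gap was not tested.

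The vehicle pools of LV and 4V ChP were compared for the regional level of the members. Of 51 tested, 1 was higher in LV and 0 were lower, where 7.44% of 14561 genes were called. An unadjusted p under 0.05 in edgeR was found for 9 members and for 3320 of the 14561 genes. Spcs2, a subunit of the signal peptidase, was at 67.9 and 59.1 CPM in vehicle LV and 47.9 and 35.7 in vehicle 4V, without overlap, a log2 fold change of 0.60 ± 0.15 (SE, adjusted p = 0.0298). Without vehicle 4V pool B no member was called, and with total counts or summed transcripts Spcs2 was not (adjusted p = 0.101 and 0.0646). The 4 ER-to-Golgi cargo genes Lman1, Mcfd2, Tmed2 and Tmed10 were all higher in both LV pools than in both 4V pools, by 0.12 to 0.32 on the log2 scale, as were 26.9% of all genes, and none of these 4 was called. Hspa5 (-0.012) and Hsp90b1 (-0.019) had overlapping pools, as did Calr (-0.0038).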

How the data were processed

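RNA sequencing of ChP in 14 pools gave 22 deposited files of counts, which the authors made as whole numbers of reads per Ensembl transcript, without normalization. The submitters' processing notes name bcl2fastq 1.8.4, Bowtie 0.12.9, SAMtools, HTSeq 0.5.3 and DESeq 1.8.3, and the build mm10. Per the labels, ribosomal RNA was depleted and libraries were strand-specific, with 50-base reads, whereas the study's methods name PolyA+ selection. Whether counting used strand is not given in the sources used here, so reads of overlapping genes can be included.

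Transcripts were matched to GENCODE vM21 (82807 of 95533, with 89.5% of the counts), and for each gene the transcript that drew the most counts in the whole set of files was kept, in place of the counts per gene the plan assumed. Where 12321 genes had 2 or more transcripts, a read can be counted on several. Both runs of a conditional pool were summed. File totals were 11253762 to 43790479 counts, which set counting error only.

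Groups of 2 pools were compared with edgeR 4.0.16 in R 4.3.3 (filterByExpr, TMM, quasi-likelihood test), with Benjamini-Hochberg adjusted p-values across every tested gene and a threshold of 0.05. Permuting 2 pools against 2 exactly gives no p under 0.333. CPM are TMM-scaled within each run. Fits were tested on simulated data with 200 changed genes. DESeq2 1.42.0, other scalings and filters, sums over transcripts, a replicate block, pools left out and the files as attached were the alternatives. Tables and figures used Python 3.11.15, pandas 2.3.3, NumPy 2.4.6 and matplotlib 3.10.9. Promoters came from RefSeq (GRCm38.p6), and 11 members had no entry there: Ssr2, Manf, Hyou1, Sec11c, Atf6, Sec61a1, Sil1, Tmed2, Lman1, Rcn1 and Derl1. Spcs3 had none under its own symbol and was matched by synonym to Arxes2, a gene of another chromosome.

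Pool values are given for members past the threshold in any comparison, the highest member of each role, and the 6 sensors and factors. The other genes printed beside them, Hsp90b1, Manf, Creld2, Hyou1 and Rcn2 in further groups among them, were chosen after their values were seen. Members, roles and lists were chosen with earlier results of these data known. Deviations of same-letter pools from their group correlated at 0.36 over 14573 genes for Otx2+/- and wildtype. In the other comparisons of 2 groups the correlation ran from −0.13 to 0.15. No source says that a letter pairs pools.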

Additional observations from a re-analysis of the deposited data

How the results depend on the processing

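Direction and side of the threshold were the same in 371 of the 464 alternative values for the 35 member results tested. Of the rest, 51 lost the threshold, 14 passed it, and 28 changed sign, 25 of those with the files as attached, a join that mixes pools of different groups under 1 label. As attached, log2 fold changes of Cre-Tat against vehicle in 4V were 0.43 for Calr, 0.0378 for Ddit3, 0.48 for Dnajb11, −0.24 for Eif2ak3, 0.31 for Hspa5, 0.36 for Pdia4, 0.38 for Pdia6, 0.66 for Rcn1, 0.50 for Sdf2l1, 0.30 for Sec11c, 0.51 for Sil1, 0.51 for Ssr4 and 0.21 for Xbp1. In LV they were −0.13 for Atf4, 0.24 for Atf6, 0.0316 for Calr, −0.27 for Ddit3, 0.13 for Dnajb11, −0.14 for Eif2ak3, 0.10 for Ern1, 0.0876 for Hspa5, 0.0774 for Pdia4, 0.0704 for Pdia6, 0.26 for Rcn1 and 0.0196 for Sil1. Of the members, 30 of 51 were then called in LV, where 6709 of 14956 genes were. In 4V it was 37 of 51 members and 8742 of 14858 genes, and between vehicle groups 29 of 52 and 4718 of 14454. The interaction with ventricle gave 34 of 52 members and 5258 of 15380 genes, and that with model 14 of 52 and 4688 of 15421. The other changes of sign in 4V were Atf6 without Cre-Tat pool B (−0.0867, the other pools left out giving up to 0.166) and Ern1 with total counts (0.0176) or without vehicle pool B (0.0144).

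Members called in LV, 0 in the report, were 1 with DESeq2, without a filter and with all groups in 1 fit. In 4V, 11 became 17 without a filter, 6 with summed transcripts and 6 with all groups in 1 fit. Over all genes, 1900 of 21709, 1221 of 15131 and 1142 of 15565 were then called. For Otx2+/- against wildtype, 2 became 1 with total counts, 1 without a filter and 0 with summed transcripts. For Otx2+/AA against wildtype, 1 became 10 without a filter and 0 with total counts, summed transcripts or all groups in 1 fit. Without a filter, 390 of 23345 genes were called in that comparison. Between vehicle groups, 1 became 0 with summed transcripts, and with total counts 1 was called lower in LV instead of higher. For Otx2+/- against Otx2+/AA, 1 became 2 with total counts and 0 with summed transcripts or all groups in 1 fit. The interaction with model gave 1 without a filter. The cause of these changes was not tested.

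With 1 pool left out in turn, the median log2 fold change of the members ran from −0.26 to −0.21 in LV and from −0.29 to −0.23 in 4V. It ran from −0.23 to 0.19 for Otx2+/-, −0.32 to −0.09 for Otx2+/AA and −0.03 to 0.18 between vehicle groups. For Otx2+/- against Otx2+/AA it ran from 0.03 to 0.37. In the interactions it ran from −0.02 to 0.16 with ventricle and from −0.44 to −0.06 with model. A lone pool is then assumed to vary like the other group.

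The replicate block by pool letter, for which no pairing is established, gave 0 members in LV and 25 in 4V. Over all genes it gave 622 of 15002 and 3114 of 14550. It gave 11 members for Otx2+/- (5 higher, 6 lower), 11 for Otx2+/AA and 5 between vehicle groups. The genes called there were 2539 of 14573, 549 of 14494 and 2288 of 14561. Members called were 0 for Otx2+/- against Otx2+/AA (526 of 14578 genes) and 0 in both interactions (2 of 15565 and 246 of 15327 genes). In LV, where same-letter pools deviated in opposite directions (−0.13), a crossed replicate block chosen after seeing the data gave 3 members. That block called 1012 of 15002 genes. With 2 pools a group the spread is estimated from few pools, and low members such as Derl3 and Sec61b have few counts.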
